A study of Mus musculus with 9 samples.

Results

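Bone morphogenetic protein (BMP) signalling in the injured mouse femoral artery was followed through 9 genes, chosen by name from the roles of the pathway. Earlier results of these data were known when the genes were chosen. They were the ligands Bmp2 and Bmp4, the receptor Bmpr2, the extracellular antagonists and modulators Grem1, Bmper and Chrdl1, the target genes Id1 and Id3, and Lefty1, an antagonist from a neighbouring branch of the same ligand family. All 9 were found among the 16750 genes present in at least 2 of the deposited tables. RNA came from the media (the layer of smooth muscle) of femoral arteries of C57BL/6 mice, with 3 libraries in each of 3 groups. Inhibitor-treated arteries were taken 14 days after wire injury from mice given VS-4718, an inhibitor of focal adhesion kinase (FAK), by oral gavage at 50 mg/kg in 2 doses a day for 2 weeks. Injured arteries were taken 14 days after wire injury without the inhibitor, and sham arteries came from control-operated mice. The labels name a citrate vehicle, and they do not say whether both groups without the inhibitor received it. They give no age and no transgene, and the number of animals per library is not stated. Each p-value below sets the difference between the groups compared against the spread of the libraries within them. How much of that spread lies between animals is therefore not known, and it may be technical.

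BMPs are secreted dimers that bring together type I and type II serine/threonine kinase receptors, which phosphorylate Smad1, Smad5 and Smad9, and these Smads enter the nucleus with Smad4 and switch on targets such as the Id genes. Secreted antagonists bind the ligands before they reach a receptor, and inhibitory Smads and decoy receptors damp the signal inside and at the surface of the cell. In arteries the pathway is known for its part in endothelial and smooth muscle identity, in vascular calcification and, through BMPR2 variants in people, in pulmonary arterial hypertension.

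The libraries held 14676891 to 21248740 recovered reads in genes, and 4 features of whole libraries bear on what follows. Summed over 10 skeletal muscle markers, the level was 532395 in injured replicate 2 against 31692 to 62081 in the other injured libraries, and 30221 in sham replicate 3 against 5119 and 7577 in the other sham libraries. It was also 37573 in inhibitor-treated replicate 2, against 2358 and 8421 in the other inhibitor-treated libraries. Summed over 8 hepatocyte markers, it was 25415 in inhibitor-treated replicate 3 and at most 1768 in the other 8 libraries. Injured replicate 2, sham replicate 3 and inhibitor-treated replicate 3 are called the 3 libraries that stood apart, and results were also computed without them. Inhibitor-treated replicate 2, whose skeletal muscle sum was also high, was not among the libraries chosen for that alternative and was left out only on its own. Erythroid markers summed to 6745 to 17113 in inhibitor-treated, 268 to 1538 in injured and 236 to 250 in sham libraries. Rn7sk, a small nuclear RNA without a poly(A) tail, was at 16224 to 26973 in inhibitor-treated, 13.1 to 15.5 in injured and 4.36 to 28.1 in sham libraries, so this library feature and the treatment cannot be told apart. The contractile smooth muscle markers that define the media were abundant in every library, at 581106 to 590683, 148397 to 173529 and 494752 to 664225 in inhibitor-treated, injured and sham arteries. Macrophage markers summed to 5227 to 9280, 30809 to 46721 and 3502 to 4780 in the same 3 groups, although the protocol rinsed the lumen to take off endothelial and immune cells. In bulk tissue, fewer cells of a type and less RNA per cell cannot be told apart.

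Grem1 and Bmper, the members whose levels differed most between the groups, were both highest in the injured libraries. The order of the replicates within the injured and the sham groups was not the same for both genes. Chrdl1 was also highest in the injured libraries, and its window is not shown. The 250 bases before the annotated starts of Grem1 and Bmper are given here. They are RefSeq promoter entries of build GRCm38.p6, read on the gene's own strand, at chr2:113758649-113758898 (minus strand) for Grem1 and chr9:23222826-23223075 (plus strand) for Bmper. The capitals mark GGCGCC, a GC-rich motif known to be bound by BMP-activated Smads.
Grem1: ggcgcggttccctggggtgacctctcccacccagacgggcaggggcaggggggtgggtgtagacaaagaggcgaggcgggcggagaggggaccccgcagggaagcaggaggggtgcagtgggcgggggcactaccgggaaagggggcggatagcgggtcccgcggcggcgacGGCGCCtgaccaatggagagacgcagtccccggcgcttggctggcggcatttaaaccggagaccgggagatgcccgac
Bmper: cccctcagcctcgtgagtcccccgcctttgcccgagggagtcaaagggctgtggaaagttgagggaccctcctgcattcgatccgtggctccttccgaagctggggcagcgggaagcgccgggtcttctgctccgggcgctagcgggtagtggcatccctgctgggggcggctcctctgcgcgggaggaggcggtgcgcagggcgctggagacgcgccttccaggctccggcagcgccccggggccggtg
Both windows were rich in G and C, at 72.0% for Grem1 and 71.6% for Bmper, where the median of all promoter windows was 52.4%. Grem1 held 1 match to GGCGCC, 78 to 73 bases before the start, and Bmper held none. Of 32536 windows of this kind, 9.651% held this motif. Neither this share nor those that follow were matched for G and C content, so the shares among windows as rich in G and C may differ. Neither window held the AP-1 motif TGANTCA, the TEAD motif GGAATG, a CArG box or the TATA motif TATAAA on either strand, which were found in 6.728%, 12.574%, 1.478% and 12.313% of all windows. A match is a description of the letters and no evidence of binding, and no match says only that these letters are not in this window.

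Levels below are normalised reads on 1 scale for all 9 libraries, listed for replicates 1, 2 and 3 of each group. Tests were made within the deposited table of each pair of groups with limma on log2(normalised count + 1), and a gene is said to have risen or fallen where its adjusted p over all genes tested was under 0.05. Fold changes are on that log2 scale with their standard error, and understate the change of low genes. The comparisons share libraries and are not independent of each other.

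The extracellular antagonists moved most. In injured against sham arteries Grem1, Bmper and Chrdl1 were 10.3, 7.16 and 1.89 times as high, and all 3 were lower again in inhibitor-treated than in injured arteries. In inhibitor-treated arteries none of the 3 passed the test against sham arteries.

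Grem1 encodes gremlin 1, a secreted cystine-knot protein that binds BMP2, BMP4 and BMP7 and keeps them from their receptors (chromosome 2, 113746164 to 113758646, GRCm38). It was at 14.2, 26.6 and 9.09 in inhibitor-treated, 64.4, 114 and 99.6 in injured and 8.01, 10.6 and 5.44 in sham libraries. Every injured library lay above every other library, and inhibitor-treated replicate 3 lay within the range of the sham libraries. The values rest on few reads: 15, 29 and 10 in the inhibitor-treated, 54, 120 and 116 in the injured and 8, 9 and 5 in the sham libraries. Grem1 fell by 2.49 ± 0.43 in inhibitor-treated against injured arteries (limma adjusted p = 0.00374) and rose in injured against sham arteries by 3.37 ± 0.36 (adjusted p = 0.000214). In injured against sham arteries it passed the filter of a mean of at least 10 only through the injured libraries (sham mean 7.71). That limits what the adjusted p of the rise can show. Inhibitor-treated against sham arteries gave 0.90 ± 0.50 (95% interval -0.25 to 2.05, adjusted p = 0.356).

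Bmper encodes a secreted protein with von Willebrand C domains, related to fly crossveinless, that can block or promote BMP signalling according to its amount (chromosome 9, 23223076 to 23485200). Its level was 65.5, 90.8 and 53.6 in inhibitor-treated, 605, 419 and 652 in injured and 82.1, 55.1 and 94.7 in sham libraries. The lowest injured library was above 4 times the highest of the other 6, and the inhibitor-treated and sham libraries overlapped. Bmper fell by 2.98 ± 0.25 in inhibitor-treated against injured arteries (limma adjusted p = 0.000197) and rose by 2.84 ± 0.25 in injured against sham arteries (adjusted p = 7.89e-05). Against sham arteries the inhibitor-treated ones gave -0.13 ± 0.27 (95% interval -0.75 to 0.49, adjusted p = 0.826).

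Chrdl1 encodes chordin-like 1, also called ventroptin, which binds BMP4 (chromosome X, 143285674 to 143394262). It stood at 1116, 1017 and 821 in inhibitor-treated, 1459, 1615 and 2511 in injured and 996, 897 and 963 in sham libraries. Injured replicate 3 was the highest, and every injured library was above the other 6. Chrdl1 fell by 0.88 ± 0.22 in inhibitor-treated against injured arteries (limma adjusted p = 0.0177) and rose in injured against sham arteries by 0.92 ± 0.19 (adjusted p = 0.00603). The fall was not called without inhibitor-treated replicate 3 (-0.76, adjusted p = 0.0697) or without the 3 libraries that stood apart (-0.84, adjusted p = 0.114). Scaled on ribosomal protein genes, neither call was made (-0.53 in inhibitor-treated against injured arteries, adjusted p = 0.247, and 0.69 in injured against sham arteries, adjusted p = 0.145). Inhibitor-treated against sham arteries gave 0.05 ± 0.11 (95% interval -0.21 to 0.31, adjusted p = 0.841).

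**Figure D1:**
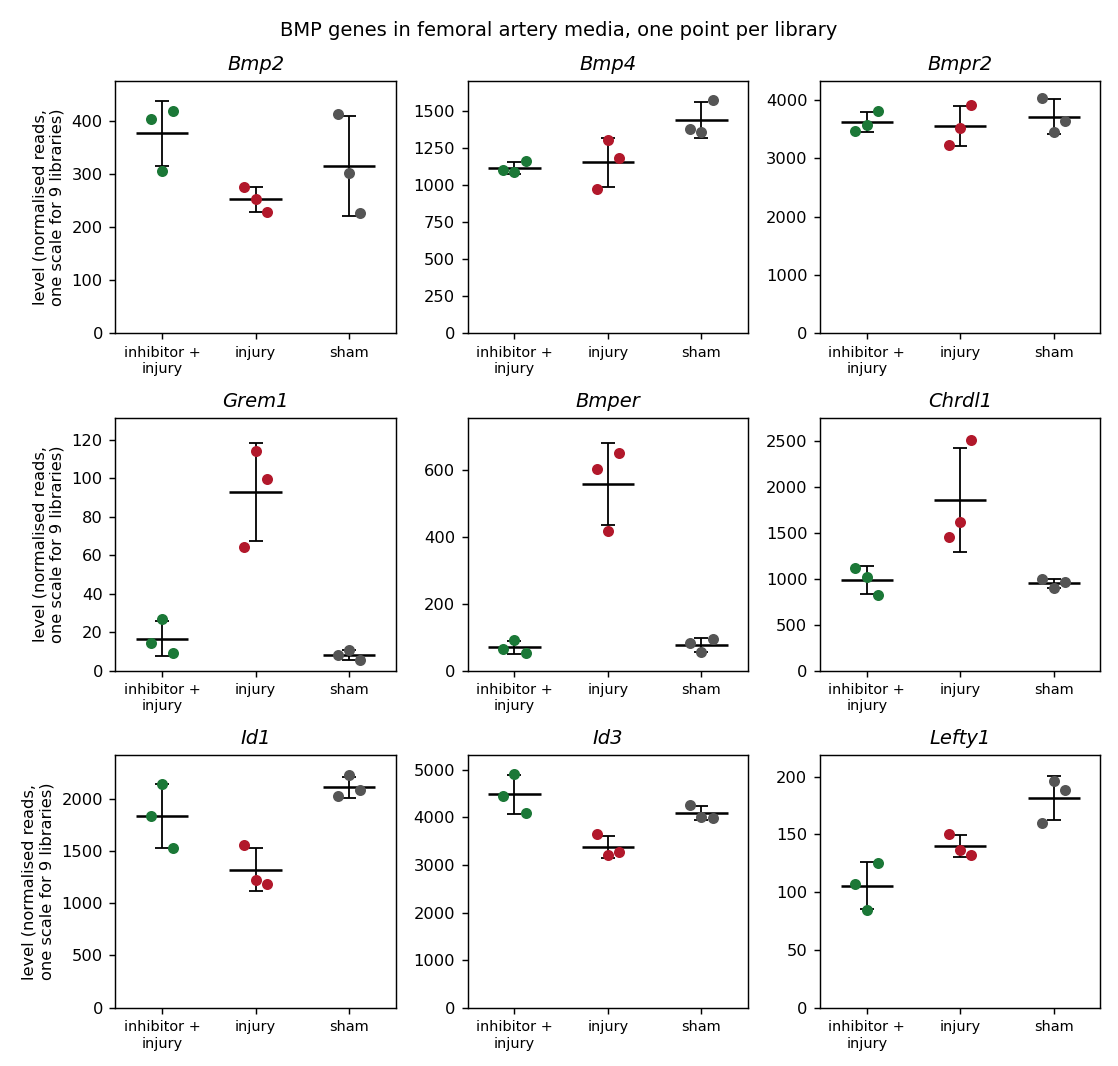
Level of the 9 genes in each library (normalised reads on 1 scale for all 9 libraries, linear axes from 0), with points for the libraries of each group, a bar at the group mean and whiskers of 1 SD (n = 3). Grem1, Bmper and Chrdl1 are higher in every injured library than in any other, Id1 is lower in every injured than in every sham library, and Bmpr2 overlaps in all 3 groups.

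The plot of levels by library shows the antagonists Grem1, Bmper and Chrdl1 in its middle row, and the targets Id1 and Id3 with Lefty1 in the bottom row. The ligands and the receptor are in its top row.

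Of the ligands, Bmp4 did not pass against sham in injured arteries, and Bmp2 was higher with the inhibitor than without it. Bmp4 encodes a BMP of mesoderm and vessel development (chromosome 14, 46383520 to 46390669). Its level was 1105, 1089 and 1166 in inhibitor-treated, 976, 1304 and 1186 in injured and 1384, 1358 and 1578 in sham libraries. All 6 injured libraries, with or without the inhibitor, were below every sham library and overlapped each other. Bmp4 fell by 0.35 ± 0.08 in inhibitor-treated against sham arteries (limma adjusted p = 0.0461). That call was lost in 12 of 19 alternatives, among them those leaving out any 1 of the 6 libraries (fold changes -0.39 to -0.27, adjusted p = 0.0669 to 0.158) and the 3 libraries that stood apart (-0.31, adjusted p = 0.0926). Inhibitor-treated against injured arteries gave -0.03 ± 0.12 (adjusted p = 0.853) and injured against sham arteries -0.33 ± 0.14 (adjusted p = 0.0868), which passed with all 9 libraries in 1 fit (-0.32, adjusted p = 0.045). Gm15217 and Gm15222 overlap Bmp4 on the other strand, and whether the counting used strand is not given in the sources used here, so their reads and those of Bmp4 may not be separate.

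Bmp2, a ligand best known for bone and cartilage formation (chromosome 2, 133552159 to 133562885), was at 404, 306 and 418 in inhibitor-treated, 276, 252 and 229 in injured and 414, 303 and 226 in sham libraries. The inhibitor-treated libraries lay above all injured ones, while the sham libraries were spread over the range of both. Bmp2 rose in inhibitor-treated against injured arteries by 0.57 ± 0.16 (limma adjusted p = 0.0268). It was not called without inhibitor-treated replicate 1 (0.51, adjusted p = 0.104), without inhibitor-treated replicate 3 (0.49, adjusted p = 0.105), without injured replicate 2 (0.57, adjusted p = 0.0698), without the 3 libraries that stood apart (0.48, adjusted p = 0.21) or with all 9 libraries in 1 fit (0.56, adjusted p = 0.0533). Injured against sham arteries gave -0.28 ± 0.22 (adjusted p = 0.346) and inhibitor-treated against sham arteries 0.30 ± 0.22 (adjusted p = 0.477).

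Bmpr2, the type II receptor dedicated to BMPs (chromosome 1, 59763400 to 59879014), varied least. It was at 3474, 3577 and 3817 in inhibitor-treated, 3229, 3515 and 3910 in injured and 4037, 3447 and 3646 in sham libraries, and the 3 groups overlapped. Its fold changes were 0.04 ± 0.10 in inhibitor-treated against injured (95% interval -0.20 to 0.27), -0.07 ± 0.12 in injured against sham (-0.34 to 0.20) and -0.02 ± 0.08 in inhibitor-treated against sham arteries (-0.20 to 0.16). The limma adjusted p values were 0.804, 0.671 and 0.912. The intervals reach as far as -0.34 on the log2 scale, and a p above the threshold does not show that the levels were equal.

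Among the targets, Id1 was lower in injured than in sham arteries and Id3 was higher with the inhibitor than without it. Id proteins lack a DNA-binding domain and hold back basic helix-loop-helix transcription factors. Id1 (chromosome 2, 152736251 to 152737410) was at 1836, 2138 and 1532 in inhibitor-treated, 1557, 1223 and 1186 in injured and 2023, 2224 and 2081 in sham libraries. No injured library reached the sham range, while inhibitor-treated replicate 3 was just below injured replicate 1. Id1 fell by 0.69 ± 0.13 in injured against sham arteries (limma adjusted p = 0.00357). Inhibitor-treated against injured arteries gave 0.47 ± 0.16 (adjusted p = 0.0522), which passed in 7 of 19 alternatives, including the authors' deposited table (0.48, adjusted p = 0.0252) and the fits without inhibitor-treated replicate 3 (0.60, adjusted p = 0.0392) or injured replicate 1 (0.60, adjusted p = 0.0276). Inhibitor-treated against sham arteries gave -0.20 ± 0.11 (adjusted p = 0.368).

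Id3 (chromosome 4, 136143497 to 136145755) was at 4448, 4917 and 4103 in inhibitor-treated, 3651, 3211 and 3272 in injured and 4271, 4012 and 3992 in sham libraries. The 3 injured libraries were the lowest of the 9, and the inhibitor-treated and sham libraries overlapped. Id3 rose in inhibitor-treated against injured arteries by 0.41 ± 0.11 (limma adjusted p = 0.0198). It was not called without inhibitor-treated replicate 1 (0.42, adjusted p = 0.0711), inhibitor-treated replicate 2 (0.34, adjusted p = 0.085) or injured replicate 2 (0.37, adjusted p = 0.0626), without the 3 libraries that stood apart (0.44, adjusted p = 0.0931) or after quantile normalisation (0.24, adjusted p = 0.0952). Injured against sham arteries gave -0.29 ± 0.11 (adjusted p = 0.0667), which passed in 4 alternatives, including the fit without injured replicate 1 (-0.34, adjusted p = 0.0468). Inhibitor-treated against sham arteries gave 0.14 ± 0.08 (adjusted p = 0.356).

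Lefty1 encodes an antagonist of Nodal, a ligand of the wider TGF-beta family, known from left-right patterning of the embryo (chromosome 1, 180935022 to 180938400). It was at 107, 84.4 and 125 in inhibitor-treated, 150, 137 and 132 in injured and 160, 196 and 188 in sham libraries, so the 3 groups did not overlap, with inhibitor-treated libraries lowest and sham libraries highest. Lefty1 fell by 0.78 ± 0.17 in inhibitor-treated against sham arteries (limma adjusted p = 0.0383). This call was lost in 10 of 19 alternatives, among them 5 of the 6 that left out 1 library (all but inhibitor-treated replicate 3; fold changes -0.86 to -0.62, adjusted p = 0.0761 to 0.125) and the one without the 3 libraries that stood apart (-0.88, adjusted p = 0.102). Inhibitor-treated against injured arteries gave -0.41 ± 0.19 (adjusted p = 0.131) and injured against sham arteries -0.38 ± 0.16 (adjusted p = 0.105), which passed after quantile normalisation (-0.66, adjusted p = 0.0174). Lefty1 has a close paralog, Lefty2, which was not among the genes measured in any comparison. Lefty1 may share reads with Lefty2, so the values of Lefty1 are uncertain.

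**Figure D2:**
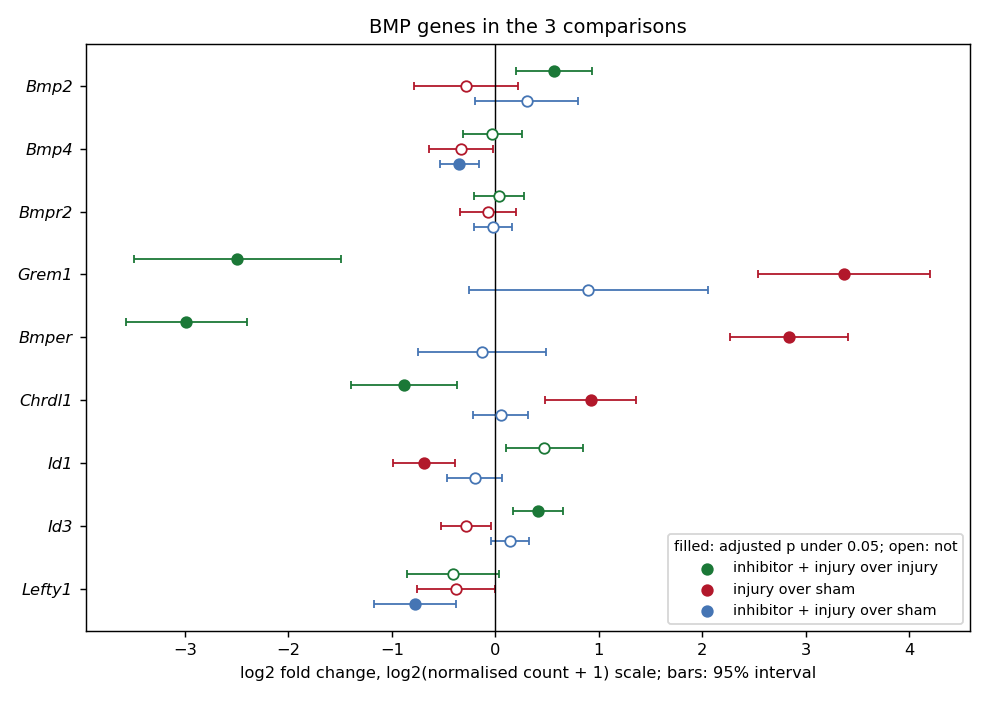
Log2 fold change of each of the 9 genes in the 3 comparisons, on the log2(normalised count + 1) scale, with 95% intervals from limma (3 libraries a group). Filled points passed at an adjusted p under 0.05, and the rises of Grem1 (3.37) and Bmper (2.84) in injured against sham arteries stand opposite their falls (-2.49 and -2.98) in inhibitor-treated against injured arteries.

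The plot of fold changes sets the 3 comparisons of each gene side by side. In inhibitor-treated against injured arteries 2 of the 9 genes rose and 3 fell, where 36.1% of all 16901 genes tested were called in either direction, 17.6% higher and 18.5% lower. The libraries of the groups did not overlap in 6 of the 9, against 51.6% of all genes. In injured against sham arteries 3 rose and 1 fell, where 37.3% of 16278 genes were called, 20.6% higher and 16.8% lower, and 7 of the 9 did not overlap, against 51.3% of all genes. In inhibitor-treated against sham arteries 0 rose and 2 fell (limma; 0 and 2 also at an unadjusted p under 0.05, 0 and 0 with edgeR, 0 and 2 with DESeq2), where 6.08% of 16166 genes were called, 5.15% higher and 0.934% lower, and 2 of the 9 did not overlap, against 27.9% of all genes. The 9 genes were chosen by name with earlier results of these data known. The counts are also small, so nothing particular to the 9 genes is read from these shares. All 9 passed the filter of a mean normalised count of at least 10 in every table. Grem1 passed it in injured against sham arteries only through the injured libraries, with a sham mean of 7.71.

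The same contrasts were read for a list of 64 BMP pathway genes that includes the 9 and was also chosen with earlier results known. In all, 52 to 54 of them were in each table. In inhibitor-treated against injured arteries 16 rose and 15 fell of 54, and in injured against sham arteries 14 rose and 17 fell of 52, with median fold changes of -0.04 and -0.10 beside 0.01 and -0.00 over all genes tested. Both comparisons use the injured libraries. The shares of all genes called, 17.6% higher and 18.5% lower in inhibitor-treated against injured arteries and 20.6% higher and 16.8% lower in injured against sham arteries, stand behind these counts and those by role, and nothing particular to the pathway is read from the counts. Values given for these genes are normalised counts from the table of the comparison named. Scaled on ribosomal protein genes, the calls were 16 higher and 4 lower in inhibitor-treated against injured and 7 higher and 15 lower in injured against sham arteries. Without the 3 libraries that stood apart they were 11 higher and 5 lower, and 14 higher and 13 lower. Of the genes named below, Acvrl1, Eng, Bambi, Smad1, Smad5, Msx1, Hes1, Hey1 and Fstl1 then lost their call in inhibitor-treated against injured arteries (adjusted p = 0.0598 to 0.218), and Chrd, Bambi and Fstl1 in injured against sham arteries (adjusted p = 0.205, 0.0586 and 0.115). Leaving out inhibitor-treated replicate 3 alone left 15 higher and 6 lower in inhibitor-treated against injured arteries.

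The other ligands were uneven. Bmp3, a BMP that can oppose the signalling of other BMPs, had 274, 467 and 413 normalised counts in inhibitor-treated libraries, against 69.6, 127 and 108 in injured libraries, and rose by 1.92 ± 0.28 (limma adjusted p = 0.00199). It fell by 2.28 ± 0.24 in injured against sham arteries (adjusted p = 0.000176), and the groups did not overlap in either comparison. Bmp5, a close relative of Bmp6 and Bmp7, was higher in every injured than in every sham library, at 37.8, 43.7 and 114 against 12.5, 9.05 and 26.2, and rose by 1.92 ± 0.52 (adjusted p = 0.0203). That call was lost without sham replicate 1 or sham replicate 2 (1.61 to 1.82, adjusted p = 0.0734 to 0.0806). Inhibitor-treated against injured arteries gave -1.29 ± 0.43 for Bmp5 (adjusted p = 0.0539). Of the other listed ligands, Bmp6 was in all 3 tables and called in none. Bmp7, Gdf6 and Gdf7 were in 1 table each and not called, and the other 6 were in none of the 3 tables.

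Among 17 measured antagonists and modulators, 3 rose and 8 fell in inhibitor-treated against injured arteries, and 8 rose and 4 fell in injured against sham arteries. Sost encodes sclerostin, a relative of the gremlins that is best known as a Wnt inhibitor of bone and is also made by vascular smooth muscle. It went the opposite way to Grem1, at 13391, 13226 and 10781 normalised counts in inhibitor-treated libraries against 84.5, 24.6 and 22.4 in injured libraries, and rose by 8.38 ± 0.46 (limma adjusted p = 5.26e-05). It fell by 8.15 ± 0.48 in injured against sham arteries (adjusted p = 1.72e-05), and inhibitor-treated and sham libraries overlapped (0.24 ± 0.24, adjusted p = 0.605). Fst, follistatin, which binds activins and some BMPs, was at 514, 498 and 347 in inhibitor-treated against 1226, 848 and 819 in injured libraries. It fell by 1.09 ± 0.21 (adjusted p = 0.00662) and rose by 1.27 ± 0.20 in injured against sham arteries (adjusted p = 0.00159). Nog, noggin, a classical antagonist of the embryonic organiser, passed in no comparison (-0.43 ± 0.30, 0.51 ± 0.33 and 0.10 ± 0.24, in the order inhibitor-treated against injured, injured against sham and inhibitor-treated against sham). Chrd, chordin, fell by 0.57 ± 0.18 in injured against sham arteries (adjusted p = 0.0382), a call that was lost on leaving out any 1 library except injured replicate 3 (-0.65 to -0.43, adjusted p = 0.0658 to 0.134).

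Kcp, a chordin family protein known to enhance BMP signalling and singled out here after its values were seen, moved in the same directions as Bmper. It was at 13.8, 24.9 and 20.8 in inhibitor-treated libraries against 160, 145 and 132 in injured libraries and fell by 2.85 ± 0.27 (limma adjusted p = 0.000319), and it rose by 2.65 ± 0.22 in injured against sham arteries (adjusted p = 6.71e-05). The 3 antagonists and modulators that rose with the inhibitor, where 8 fell, were Sost, Fstl3 and Twsg1. Fstl3 rose by 1.85 ± 0.23 and fell by 1.77 ± 0.24 with injury (limma adjusted p = 0.000975 and 0.000656). Twsg1 rose by 1.14 ± 0.12 and fell by 1.28 ± 0.14 (adjusted p = 0.000481 and 0.000265). These calls held in every alternative. In inhibitor-treated against sham arteries 3 of 53 pathway genes fell, Bmp4, Lefty1 and Nbl1, and 0 rose (limma; 7 lower and 3 higher at an unadjusted p under 0.05, 1 and 0 with edgeR, 4 and 0 with DESeq2). Over all 16166 genes tested in that comparison, limma called 5.15% higher and 0.934% lower, and nothing particular to the pathway is read from the counts. Nbl1 encodes a DAN family antagonist and fell by 0.36 ± 0.07 (adjusted p = 0.0236), with 2519, 2606 and 2607 normalised counts in inhibitor-treated against 3450, 3038 and 3456 in sham libraries. The call was lost in 5 of the 6 fits without 1 library, all but that without sham replicate 2 (-0.37 to -0.33, adjusted p = 0.0575 to 0.0994).

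**Figure D3:**
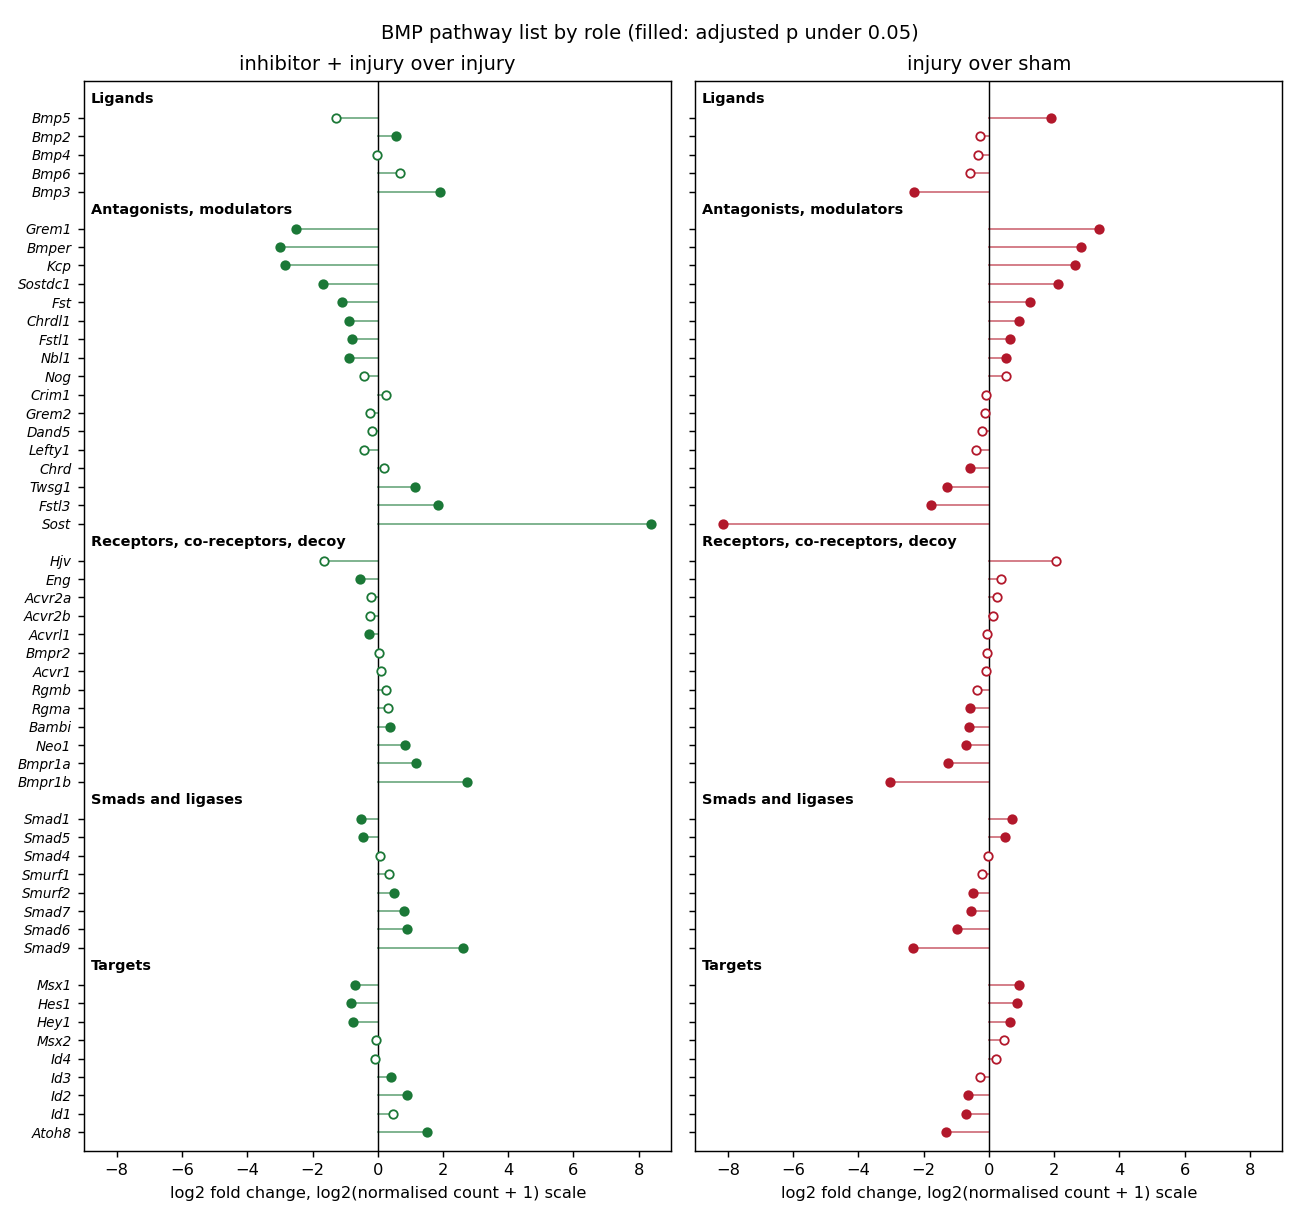
Log2 fold change of the 52 pathway genes present in both tables, by role, in inhibitor-treated against injured arteries (left) and injured against sham arteries (right), on the log2(normalised count + 1) scale. Filled points passed at a limma adjusted p under 0.05. Sost lies farthest from 0 on both sides (8.38 and -8.15). Both panels use the injured libraries, with opposite sign.

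Each point in the plot by role is 1 gene, and genes keep their row between the panels. Among the receptors called in these comparisons the type I receptors Bmpr1b and Bmpr1a had the largest fold changes, and Bmpr2 and Acvr1 did not pass. Of 13 receptors, co-receptors and decoys, 4 rose and 2 fell in inhibitor-treated against injured arteries, and 0 rose and 5 fell in injured against sham arteries (limma; 2 and 6 at an unadjusted p under 0.05, 1 and 5 with edgeR and with DESeq2). Bmpr1b, a type I receptor best known from cartilage, was at 463, 665 and 533 in inhibitor-treated against 80.8, 68.8 and 97.7 in injured libraries. It rose by 2.73 ± 0.19 (limma adjusted p = 0.000115) and fell by 3.04 ± 0.19 in injured against sham arteries (adjusted p = 2.12e-05). Bmpr1a, the widely expressed type I receptor, was at 4997, 4291 and 5279 in inhibitor-treated against 1924, 2022 and 2565 in injured libraries. It rose by 1.17 ± 0.14 (adjusted p = 0.00079) and fell by 1.26 ± 0.15 in injured against sham arteries (adjusted p = 0.000382). Acvr1, another type I receptor, passed in no comparison (0.09 ± 0.15, -0.09 ± 0.15 and 0.01 ± 0.10).

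Acvrl1 and Eng, receptors best known from endothelium, were lower in inhibitor-treated than in injured arteries. Acvrl1, the type I receptor through which BMP9 and BMP10 act on endothelium, was at 2029, 1887 and 1936 in inhibitor-treated against 2363, 2264 and 2353 in injured libraries. It fell by 0.25 ± 0.08 (limma adjusted p = 0.0433), but was not called on leaving out any 1 library except injured replicate 3 (-0.28 to -0.23, adjusted p = 0.0698 to 0.16), and it was at 0.10 scaled on ribosomal protein genes. Eng, the co-receptor endoglin, fell by 0.54 ± 0.11 in inhibitor-treated against injured arteries (adjusted p = 0.00921), with 3233, 3154 and 3296 in inhibitor-treated against 4069, 4779 and 5303 in injured libraries. Eng was not called without the 3 libraries that stood apart (-0.54, adjusted p = 0.0977) or scaled on ribosomal protein genes (-0.19, adjusted p = 0.583), and it gave 0.36 ± 0.15 in injured against sham arteries (adjusted p = 0.0945). Beside these, 6 of 10 endothelial markers fell in inhibitor-treated against injured arteries and 6 rose in injured against sham arteries, with summed levels of 29961 to 31305, 32657 to 47305 and 24242 to 36741 in inhibitor-treated, injured and sham libraries. Their part in the result was not tested. Bambi, a decoy receptor without a kinase domain, rose by 0.39 ± 0.13 (adjusted p = 0.0466) and fell by 0.60 ± 0.16 in injured against sham arteries (adjusted p = 0.0192). The rise was lost on leaving out any 1 library except injured replicate 3 (0.31 to 0.46, adjusted p = 0.0697 to 0.159) and the fall without injured replicate 1 or sham replicate 1 (-0.53 to -0.46, adjusted p = 0.0509 to 0.0753).

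Within the Smads the receptor-activated ones did not move as 1 group. Smad9 and both inhibitory Smads were lower in injured than in sham arteries, while Smad1 and Smad5 were higher. Smad9 was at 411, 356 and 373 in inhibitor-treated against 52.2, 61.9 and 69.0 in injured libraries, and rose by 2.63 ± 0.16 (limma adjusted p = 7.23e-05). It fell by 2.33 ± 0.22 in injured against sham arteries (adjusted p = 0.000114). Smad6 and Smad7, which block receptor-activated Smads and are themselves induced by BMPs, rose by 0.88 ± 0.12 and 0.81 ± 0.11 with the inhibitor (adjusted p = 0.00119 and 0.00154) and fell by 0.96 ± 0.17 and 0.54 ± 0.12 with injury (adjusted p = 0.00228 and 0.00973). Smad1 fell by 0.52 ± 0.12 in inhibitor-treated against injured arteries (adjusted p = 0.0146) and rose by 0.70 ± 0.12 in injured against sham arteries (adjusted p = 0.00252). Smad5 fell by 0.45 ± 0.12 (adjusted p = 0.0214) and rose by 0.49 ± 0.12 (adjusted p = 0.0139). The falls of Smad1 and Smad5 were not called without inhibitor-treated replicate 1 or inhibitor-treated replicate 3, nor that of Smad5 without inhibitor-treated replicate 2 (adjusted p = 0.0573 to 0.06 for Smad1 and 0.0601 to 0.0742 for Smad5). The rise of Smad5 was not called without sham replicate 2 (0.48, adjusted p = 0.0576), and scaled on ribosomal protein genes none of these 4 calls was made.

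Of 9 target genes, 3 rose and 3 fell in each of these comparisons. Hes1 and Hey1, named after their values were seen, rose with injury and fell with the inhibitor, as Msx1 did. The called Id genes and Atoh8 went the other way. Id2 was at 3290, 3619 and 3462 normalised counts in inhibitor-treated against 1896, 2021 and 1635 in injured libraries, and rose by 0.91 ± 0.11 (limma adjusted p = 0.000726). It fell by 0.65 ± 0.14 in injured against sham arteries (adjusted p = 0.00667), and both calls were made in all 19 alternatives. Atoh8, a basic helix-loop-helix factor known as a BMP target in liver and endothelium, rose by 1.52 ± 0.13 (adjusted p = 0.000187) and fell by 1.31 ± 0.18 with injury (adjusted p = 0.0007). Id4 passed in no comparison (-0.09 ± 0.12, 0.23 ± 0.14 and 0.15 ± 0.10). Msx1, a homeobox target, went the other way to Id2. It fell by 0.69 ± 0.18 with the inhibitor (adjusted p = 0.0205) and rose by 0.92 ± 0.20 with injury (adjusted p = 0.00697). Its fall with the inhibitor was not called without inhibitor-treated replicate 2 or inhibitor-treated replicate 3 (-0.73 to -0.58, adjusted p = 0.0505 to 0.0765), nor scaled on ribosomal protein genes (-0.34, adjusted p = 0.194).

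Levels per kb of exon allow genes to be set beside each other, but only roughly. The length used is that of all annotated exons of a gene together, not of the transcripts present. The overlap of Bmp4 with genes on the other strand, given above, applies here too. Bmp4 was the most abundant of the 5 ligands measured in all groups, at 498 ± 18.1 in inhibitor-treated, 514 ± 73.9 in injured and 640 ± 53.5 in sham arteries (SD, n = 3 each), or 54.7%, 66.5% and 62.5% of the ligand sum. Bmp2 was at 106 ± 17.1, 71.0 ± 6.51 and 88.4 ± 26.5 per kb. Grem1 stayed below both ligands even where it was highest, at 4.01 ± 2.17 in inhibitor-treated, 22.3 ± 6.13 in injured and 1.93 ± 0.62 in sham arteries. Bmper, at 14.5 ± 3.93, 116 ± 25.5 and 16.0 ± 4.19 per kb, lay above Bmp2 in injured arteries and below it in the other groups. Chrdl1 was the highest of these antagonists, at 146 ± 22.3, 275 ± 84.0 and 141 ± 7.48 per kb. Among the Id genes the order was Id3, Id1, Id2 and Id4 in every group, with Id3 at 2507 ± 228, 1886 ± 133 and 2285 ± 86.8 per kb and Id1 at 1582 ± 261, 1140 ± 176 and 1818 ± 89.3.

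**Figure D4:**
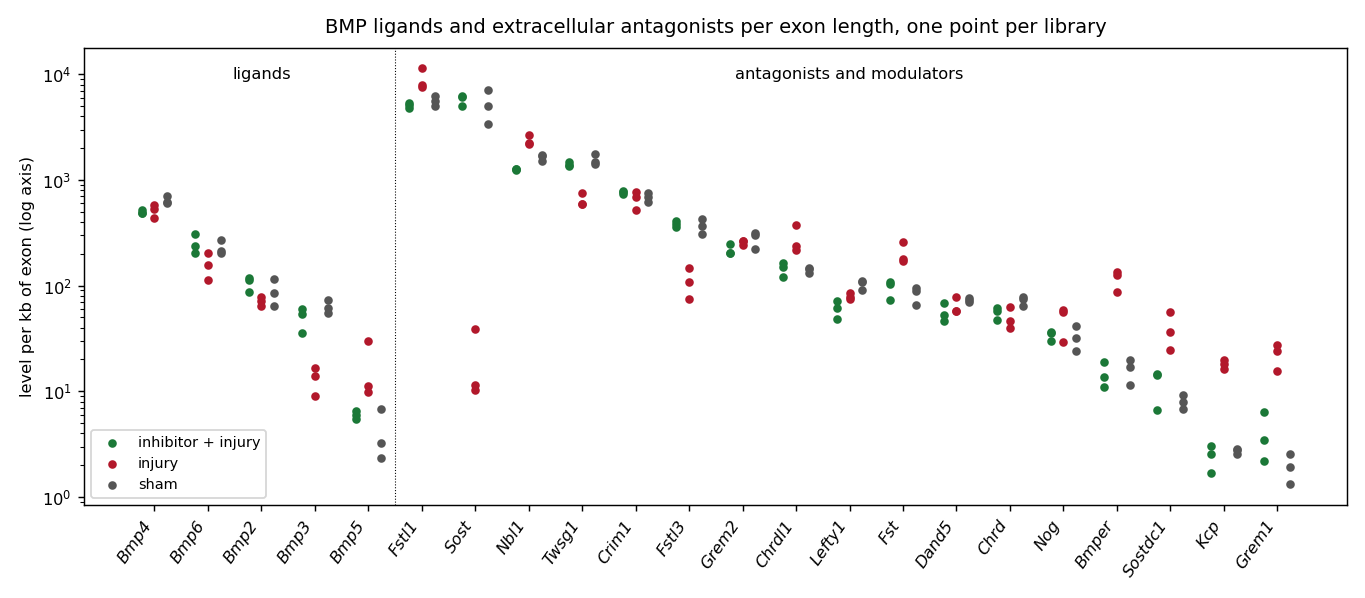
Level per kb of exon of 5 BMP ligands and 17 extracellular antagonists and modulators, 1 point per library and a log axis, ordered by mean sham level within each class. Injured libraries stand above the others for Bmper and Grem1 and far below them for Sost (20.4 per kb on average against 5786 in inhibitor-treated arteries).

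The plot of levels per kb shows that the antagonists span a wider range than the ligands. Sost made up 37.7% of the antagonist sum in inhibitor-treated arteries, and Fstl1, a follistatin-like glycoprotein named after its values were seen, made up 64.4% in injured and 35.5% in sham arteries.

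Markers of other cell types moved alongside the antagonists and targets. In inhibitor-treated against injured arteries 7 of 8 contractile smooth muscle markers rose, all 10 macrophage markers fell, 8 of 10 fibroblast and adventitial markers fell with 1 higher, 6 of 7 measured chondrogenic markers fell and 6 of 7 erythroid markers rose. In injured against sham arteries 7 of the 8 smooth muscle markers fell, all 10 macrophage markers rose, 6 fibroblast markers rose and 1 fell, 6 chondrogenic markers rose and 8 of 10 skeletal muscle markers rose. In inhibitor-treated against sham arteries, where Bmp4, Lefty1 and Nbl1 fell, 5 fibroblast markers fell, 6 of 7 erythroid markers rose and 2 macrophage markers rose. Fibroblast markers summed to 84204 to 90768, 146283 to 188262 and 106984 to 134645 in inhibitor-treated, injured and sham libraries, and chondrogenic markers to 1349 to 1640, 5464 to 7161 and 1334 to 1688. No smooth muscle, endothelial, fibroblast, macrophage or chondrogenic marker measured was at 0 in any library. The part of these cell types in the values of Grem1, Bmper, Chrdl1, Sost, Bmp4, Lefty1, Nbl1 and the Id genes was not tested.

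For each member the genes with the most similar pattern were taken as the 3 with the highest Pearson correlation of log2 levels over the 9 libraries, among genes with a mean level of at least 100. The 9 libraries fall into 3 groups that differ in many genes, so these values describe shared group differences and are given without a test. Nearest to Bmper were Steap4 (r = 0.994), Lum (0.993) and Pld3 (0.993), of which Lum is on the fibroblast marker list. Nearest to Chrdl1 were Tulp4 (0.988), Ptk2 (0.979), the gene of FAK itself, and Dock9 (0.977). Nearest to Grem1 were Mcu, Csf2rb2 and Ncapg2 (0.977 to 0.978), nearest to Id1 were Zfpl1, Rrp9 and Chchd7 (0.966 to 0.975), and nearest to Id3 were Cript, Tmem184b and Actg1 (0.970 to 0.972). Bmpr2 was nearest to Jrkl, Tmem209 and Ikbkg (0.956 to 0.963), and Bmp4 to Zfyve9, Stoml2 and Ssu72 (0.918 to 0.952). The lowest values were those of Lefty1, with Rnaseh2b, Aff3 and Ndc1 (0.905 to 0.925), and Bmp2, with St6gal1, Nkiras1 and Dpy19l3 (0.898 to 0.917).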

How the data were processed

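RNA sequencing of 9 libraries was read from 3 tables that the authors deposited, one per pair of groups. Per the file headers, each holds normalised counts per gene beside the authors' log2 fold changes, p-values and adjusted p-values. The deposited counts are a normalised signal, scaled separately in each table, so limma, which the design named for normalised values, was used in place of edgeR. Whole reads were recovered for 100% of values within 0.01 of a read, giving 14676891 to 21248740 reads per library. In 2 columns 1 read is worth close to 1 (0.989 and 0.997), so there the share of whole values says little. For the aligner, the counter, strand use and the statistical test of the authors, nothing is given in the sources used here. The build was mm10 (GRCm38), per the submitters' processing notes. Replicates differed by more than sampling noise (chi-square per degree of freedom 11.6 to 102), so each library counts once.

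Each comparison was fitted on its own table in limma 3.58.1 (R 4.3.3) on log2(normalised count + 1), trended variance, two-sided, for genes with a mean of at least 10, with Benjamini-Hochberg adjustment over all genes and a threshold of 0.05. The log2 fold changes and adjusted p-values of the authors' deposited tables were used only as an alternative. The fit was tested on simulated data. With 3 libraries a group an exact permutation test reaches no p below 0.1 (two-sided), so none was used. Levels across groups were rescaled from the recovered reads with median-of-ratios factors over 9 libraries. The alternatives were edgeR 4.0.16, DESeq2 1.42.0, other pseudocounts, filters and scalings, and left-out libraries.

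The members, the 64-gene pathway list and the marker lists were chosen with earlier results of these data known. The text names all members, 15 listed pathway genes whatever their values, the 2 called genes with the largest change per role and comparison, and the 3 genes most correlated with each member. Kcp, Fstl1, Fstl3, Twsg1, Hes1 and Hey1 were named after their values were seen. Gene positions are from GENCODE M21. Promoter entries from RefSeq matched 5 of the 9 members.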

Additional observations from a re-analysis of the deposited data

How the results depend on the processing

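Each result was recomputed under 19 alternatives per comparison. Of 511 member values, 447 kept direction and side of the threshold, 36 lost their call, 13 gained one and 15 changed sign; the cause was not tested. The calls of Grem1 and Bmper in both comparisons with injured arteries, and of Id1 in injured against sham arteries, held in every alternative that could be run (with a mean filter of 50 Grem1 could not be tested against sham). In injured against sham arteries Grem1 was past the main filter only through the injured libraries. Some of these calls were only just under the threshold. The highest adjusted p over the alternatives was 0.0498 for Grem1 and 0.00722 for Bmper in inhibitor-treated against injured arteries, and 0.0421 for Id1 in injured against sham arteries. Every sign change was in a value that was not called. For Bmpr2 they were 0.11 (quantile normalisation, injured against sham), -0.14 (quantile), -0.011 (without the 3 libraries that stood apart) and a range of -0.030 to 0.11 (without 1 library) in inhibitor-treated against injured, and 0.086 (ribosomal protein scaling) and a range of -0.077 to 0.042 (without 1 library) in inhibitor-treated against sham arteries. For Bmp4 in inhibitor-treated against injured arteries they were 0.028 (without those 3), 0.32 (ribosomal) and a range of -0.15 to 0.057 (without 1 library). In inhibitor-treated against sham arteries they were 0.21 (without those 3) and a range of -0.36 to 0.041 (without 1 library) for Bmper and a range of -0.045 to 0.17 (without 1 library) for Chrdl1.

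Against 5 members called in inhibitor-treated against injured arteries, 3 to 6 were called without 1 library and 2 without the 3 that stood apart. Genes called were 6099, and 3069 without those 3. Pathway genes called were 31, against 16 without those 3, 20 under ribosomal scaling and 21 to 37 without 1 library. In inhibitor-treated against sham arteries 2 members were called, against 0 without a variance trend, with edgeR, without those 3 or under ribosomal scaling, 1 with a mean filter of 50 or all 9 libraries in 1 fit, and 0 to 1 without 1 library. Genes called were 983, against 558 without a variance trend and 518 to 822 without 1 library. Pathway genes called were 3, against 0 without a trend, without those 3 or under ribosomal scaling, 1 with edgeR or all 9 libraries, and 0 to 1 without 1 library. The main fits did not pair libraries by replicate number. Correlations of deviations were -0.17 to 0.39 for libraries of the same number and -0.37 to 0.26 for the others, which cannot exclude a pairing. With the replicate block 1 member and 1 pathway gene were called in inhibitor-treated against sham arteries. Ribosomal scaling, chosen after seeing the data, moved the median fold change over all genes to 0.36 for inhibitor-treated against injured, -0.23 for injured against sham and 0.10 for inhibitor-treated against sham arteries. It turned the split of called genes from 2976 higher and 3123 lower to 3176 and 1431 in inhibitor-treated against injured arteries, and from 832 and 151 to 1169 and 36 in inhibitor-treated against sham arteries, where quantile normalisation gave 617 and 220. edgeR on the recovered reads called 5962, 6055 and 899 genes in inhibitor-treated against injured, injured against sham and inhibitor-treated against sham arteries. The order of the group means was the same for all 9 members with TMM factors. With 3 libraries a group the precision is low, most of all for Grem1 with its 5 to 9 reads per sham library.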
